A study of Mus musculus with 24 samples.

Results

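This report concerns how transcripts differed between Prxl2a knockout and wildtype mice in the brain as compared with the liver. It uses the 12 brain and liver libraries of a series of 24, and its measure for each gene is the KO minus WT change in brain less the KO minus WT change in liver. Prxl2a encodes a peroxiredoxin-like protein, and the mice were females aged 12 weeks, either knockout (KO) or wildtype (WT) for it. The 4 groups were KO brain, WT brain, KO liver and WT liver, with 3 libraries each. All mice were perfused with PBS to clear the blood before the organs were taken and frozen in liquid nitrogen. Neither the deleted part of the gene nor the mouse strain is given in the sources used here. Other differences between the KO and WT mice, such as genetic background, cannot be told apart from the loss of Prxl2a. The labels name 3 mice per genotype, but they do not say whether brain and liver libraries with the same number come from 1 mouse. The p-values below therefore measure the spread between these libraries.

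Peroxiredoxins are thiol enzymes that break down peroxides and are recharged by electrons that come, through thioredoxin or glutathione, from NADPH. The PRXL2 proteins share their fold and are less well studied. Brain and liver use very different gene sets: the liver makes bile, plasma proteins, cholesterol and fat, and folds secreted proteins in a large endoplasmic reticulum (ER), while neurons are rich in signalling proteins of the synapse. A difference of changes asks whether a transcript differed between KO and WT by another amount in the second organ.

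Library totals ran from 15788269 to 17293213 expected counts in brain and from 17034042 to 18257785 in liver. Values are given as CPM (counts scaled to a common library size) normalised over the 12 libraries by TMM factors. These factors were 2.25-fold higher in brain than in liver, so brain and liver levels of a gene are shown side by side but only their KO minus WT changes are compared. Replicates correlated at 0.982 to 0.991 across genes (Pearson, log2 CPM). Neuron markers averaged 8.17 to 8.36 log2 CPM in the brain libraries and hepatocyte markers 12.01 to 12.26 in the liver libraries. In liver, the first principal component separated KO from WT and held 41.7% of the variance. In brain it held 31.9%, with KO replicate 1 (9.47) and WT replicate 3 (16.5) at the same end of it and the other libraries between -12.2 and 0.35, and the second component, with 26.6%, separated KO from WT. Markers of single brain regions differed between the brain libraries too: striatum markers averaged 3.60, 5.52 and 3.40 log2 CPM in KO replicates 1 to 3 and 6.07, 5.997 and 3.78 in WT replicates 1 to 3. Choroid plexus markers averaged 1.37, -1.07 and 0.18 in KO brains and 0.22, 0.15 and 2.57 in WT brains.

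Prxl2a itself (gene 70564, GRCm38.p6 chr14:40993735-41013833) was low in every KO library. It stood at 3.51, 3.70 and 4.21 CPM in KO brains and at 71.9, 56.1 and 80.0 CPM in WT brains. In liver it stood at 2.47, 1.39 and 3.14 CPM in KO and at 133, 115 and 106 CPM in WT. Its mean in KO was 5.49% of that in WT in brain and 1.98% in liver, and no KO library overlapped a WT library. The log2 change was -4.18 in brain (SE 0.19, edgeR adjusted p = 4.86e-07) and -5.65 in liver (SE 0.22, edgeR adjusted p = 7.08e-08). The brain minus liver difference, 1.47 (SE 0.30), did not pass in edgeR (adjusted p = 0.0963) and passed in DESeq2 (adjusted p = 0.000470). Over all alternatives its adjusted p ran from 0.000470 to 0.292.

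In edgeR the KO effect differed between brain and liver for few genes, and for all of those it was larger in liver. Of 15312 genes tested, 20 passed for the difference (0.131% of genes tested, edgeR quasi-likelihood F-test, Benjamini-Hochberg adjusted p below 0.05). For 16 of them (0.104%) the change was more positive in liver, and for 4 (0.0261%) it was more negative there. The 16 were Nnt, Pik3c3, Camk2b, Ube2g2, Snrpd1 and 11 gene models without an established name, and the 4 were Pde4d, Dcdc2a, Bicc1 and Gldn. Only Nnt of the 20 also passed for KO against WT in brain, where 13 genes passed (0.0849% of genes tested; 7 up, 6 down). All 20 passed in liver, where 165 genes passed (1.08%; 86 up, 79 down). The ranges of KO and WT were apart for 8 of the 20 in brain and for all 20 in liver, while over all genes tested 12.2% did not overlap in brain and 19.0% in liver.

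Most genes that changed in liver were not shown to change differently in brain. Of the 165 genes called in liver, 145 were not called for the difference. The absolute log2 changes of the 165 had a median of 0.13 in brain and 1.21 in liver. The 165 were selected by their liver change, so a larger median in liver follows from that choice. Over all genes tested these medians were 0.12 in brain and 0.16 in liver. A gene called in liver and not in brain is therefore only counted here as different when the difference itself passed. In all, 1658 genes had an unadjusted p below 0.05 for the difference.

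**Figure D1:**
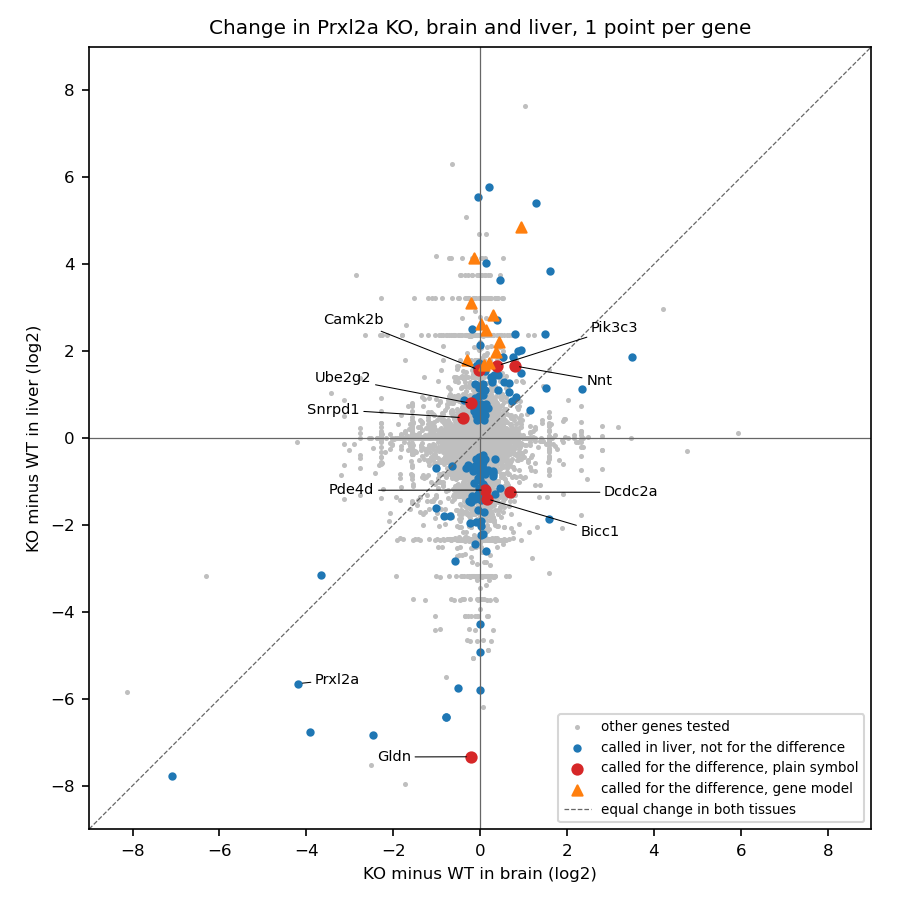
Log2 KO minus WT change in brain (horizontal axis) against the change in liver (vertical axis), 1 point per gene tested, with the dashed line where both changes are equal. Red points and orange triangles are the 20 genes called for the difference (triangles are gene models), blue points are other genes called in liver, and each of the 20 lies farther from 0 in liver than in brain.

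The count depended on single brain libraries. It was 8 without brain KO replicate 1, 11 without brain KO replicate 3 and 33 without brain WT replicate 2. Without brain WT replicate 3 and brain KO replicate 1 together, an alternative chosen after seeing the data, 6 genes were called, of which 5 were among the 20, all gene models. DESeq2 called 196 genes (0.752% of genes tested positive, 0.529% negative), and all 20 were among them, while a fit of all 24 libraries called 10, and 8 of the 20 were among those.

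**Figure D2:**
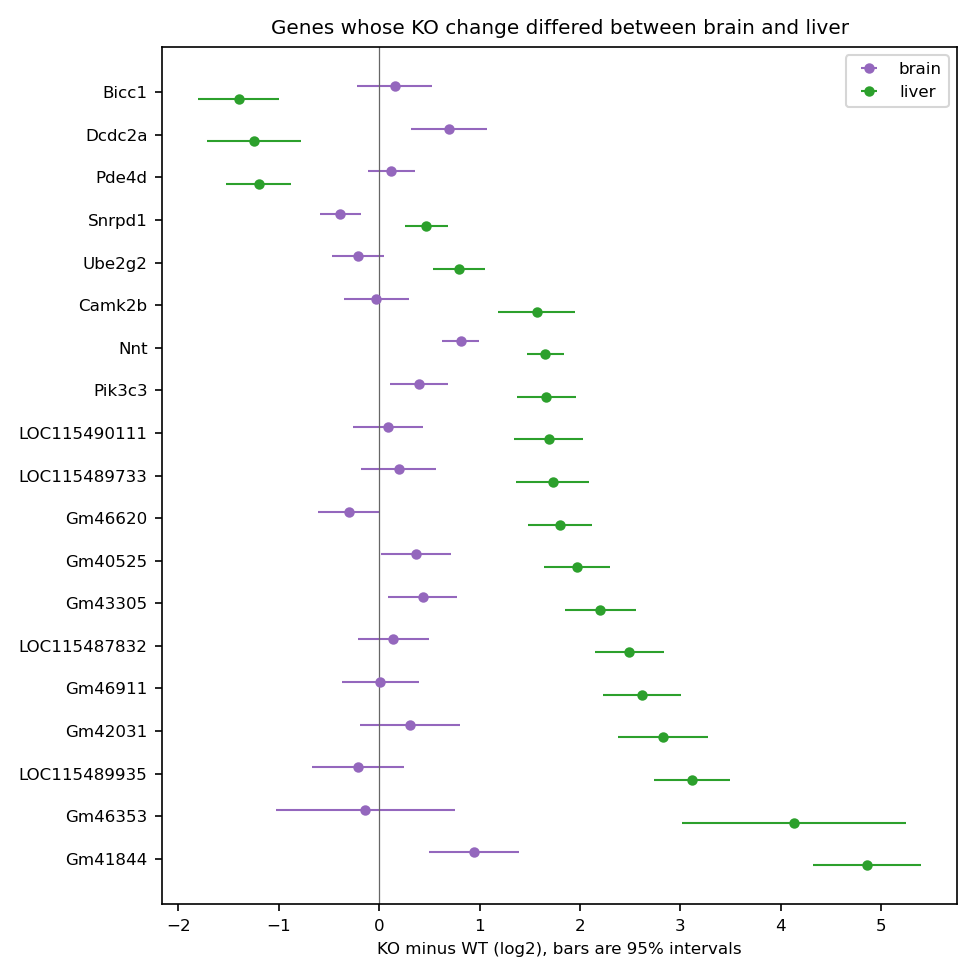
Log2 KO minus WT change with its 95% confidence interval for 19 of the 20 genes called for the difference (Gldn, with 0 counts in KO liver, is left out), with brain above liver for each gene. For Nnt both intervals lie above 0, from 1.47 to 1.84 in liver, while most of the brain intervals reach across or near 0.

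Among named genes, the 5 with a larger rise in liver encode enzymes and core proteins of the mitochondrion, the endosome, the neuron, ER protein disposal and the spliceosome. Nnt (gene 18115, GRCm38.p6 chr13:119335527-119409257) encodes the transhydrogenase of the inner mitochondrial membrane, which makes NADPH. It was the only gene of the 20 that was called up in both tissues. Its values were 26.1, 28.4 and 26.6 CPM in KO brains and 15.02, 14.7 and 16.5 CPM in WT brains. In liver they were 227, 226 and 212 CPM in KO and 73.5, 63.8 and 73.5 CPM in WT. KO lay above WT without overlap in each tissue, and the step in liver was the larger. The log2 rise was 0.81 in brain (SE 0.09, edgeR adjusted p = 0.00115) and 1.66 in liver (SE 0.08, edgeR adjusted p = 5.22e-07). The difference was -0.85 (SE 0.12, edgeR adjusted p = 0.0145). It did not pass without brain KO replicate 1 (adjusted p = 0.0528) or without brain KO replicate 3 (adjusted p = 0.0545), nor in the fit of all 24 libraries (adjusted p = 0.309). Of the 16 genes of NADPH-linked enzymes tested, only Nnt was called, in brain, in liver and for the difference. Over all genes tested, 0.0457% were called up in brain, 0.562% up in liver and 0.104% negative for the difference. Nnt had been named in earlier work on these data, and the list was chosen with earlier results known.

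Pik3c3 (gene 225326, chr18:30265615-30348126) encodes the class III phosphatidylinositol 3-kinase, also known as Vps34, which makes the lipid PI3P on endosomes and on forming autophagosomes. It was at 61.3, 62.2 and 56.2 CPM in KO brains and 43.6, 51.3 and 41.8 CPM in WT brains. The livers held 252, 279 and 318 CPM in KO and 85.3, 107 and 74.7 CPM in WT. KO libraries were above WT libraries in both tissues, by little in brain. The brain log2 value of 0.40 (SE 0.13) did not pass (edgeR adjusted p = 0.600), and in liver Pik3c3 rose (log2 change 1.67, SE 0.14, edgeR adjusted p = 2.81e-05). The difference of -1.27 (SE 0.19) passed (edgeR adjusted p = 0.0201). It was lost without brain KO replicate 1, 2 or 3 (adjusted p = 0.0670, 0.0550 and 0.0812), liver WT replicate 1 or 3 (0.0778 and 0.0539) and liver KO replicate 2 or 3 (0.0660 and 0.0769). Among the 20 genes of the list of endosome and Pik3c3 complex genes, Wdfy1 alone rose in brain, and Pik3c3 and Wdfy1 rose in liver. Pik3c3 alone was called for the difference. Over all genes tested, 0.0457% were called up in brain, 0.562% up in liver and 0.104% negative for the difference. Both Pik3c3 and Wdfy1 had been named in earlier work on these data, and the list was chosen with earlier results known.

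Camk2b (gene 12323, chr11:5969629-6066357) encodes the beta subunit of the calcium/calmodulin-dependent kinase CaMKII, best known from neurons. In brain it was at 611, 598 and 528 CPM in KO and 617, 572 and 580 CPM in WT, and the groups overlapped. In liver it was at 22.3, 26.3 and 22.6 CPM in KO and 5.79, 10.9 and 7.21 CPM in WT, with every KO liver above every WT liver. The log2 change was -0.03 in brain, Camk2b rose by 1.57 in liver (SE 0.18, edgeR adjusted p = 0.000678), and the difference was -1.59 (SE 0.23, edgeR adjusted p = 0.0168). The difference did not pass without brain KO replicate 1 or 3 (adjusted p = 0.0528 and 0.0609), liver WT replicate 3 (0.0642), or liver KO replicate 1, 2 or 3 (0.0551, 0.0660 and 0.0564). Neuron markers summed to 17.97, 18.4 and 15.5 CPM in KO livers and to 21.96, 21.2 and 19.9 CPM in WT livers, lower in every KO liver, and their part in the Camk2b values was not tested.

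Ube2g2 (gene 22213, chr10:77622321-77645990) encodes a ubiquitin-conjugating enzyme that marks misfolded ER proteins for breakdown. Its levels were 24.4, 23.997 and 21.0 CPM in KO brains and 28.7, 23.0 and 28.5 CPM in WT brains. The liver levels were 73.1, 74.9 and 66.6 CPM in KO and 35.5, 41.2 and 46.7 CPM in WT. The brain groups overlapped, and the liver groups did not. The brain log2 change was -0.21, the gene rose by 0.80 in liver (SE 0.12, edgeR adjusted p = 0.00580), and the difference was -1.01 (SE 0.17, edgeR adjusted p = 0.0437). This call was kept without brain WT replicate 2 and without liver WT replicate 3, and it was lost when any other of the 12 libraries was left out (adjusted p up to 0.136, without brain WT replicate 1).

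Snrpd1 (gene 20641, chr18:10617796-10628230), a core Sm protein of the particles that splice RNA, separated KO from WT in opposite directions in the 2 tissues. It stood at 16.4, 15.998 and 14.8 CPM in KO brains and 19.1, 20.9 and 21.7 CPM in WT brains. In liver it stood at 18.8, 20.2 and 17.9 CPM in KO and 13.7, 13.4 and 13.98 CPM in WT. All KO brains were below all WT brains, as for 6.33% of genes tested, and all KO livers were above all WT livers. The log2 change was -0.39 in brain (SE 0.09), which did not pass (edgeR adjusted p = 0.373), and 0.47 in liver (SE 0.10, edgeR adjusted p = 0.0443). The difference was -0.86 (SE 0.14, edgeR adjusted p = 0.0310). It passed with 1 library left out only without brain WT replicate 1 (adjusted p otherwise up to 0.111, without liver WT replicate 2). Near-identical copies of Snrpd1 exist in the genome, and reads may be split among them, so its values are uncertain.

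**Figure D3:**
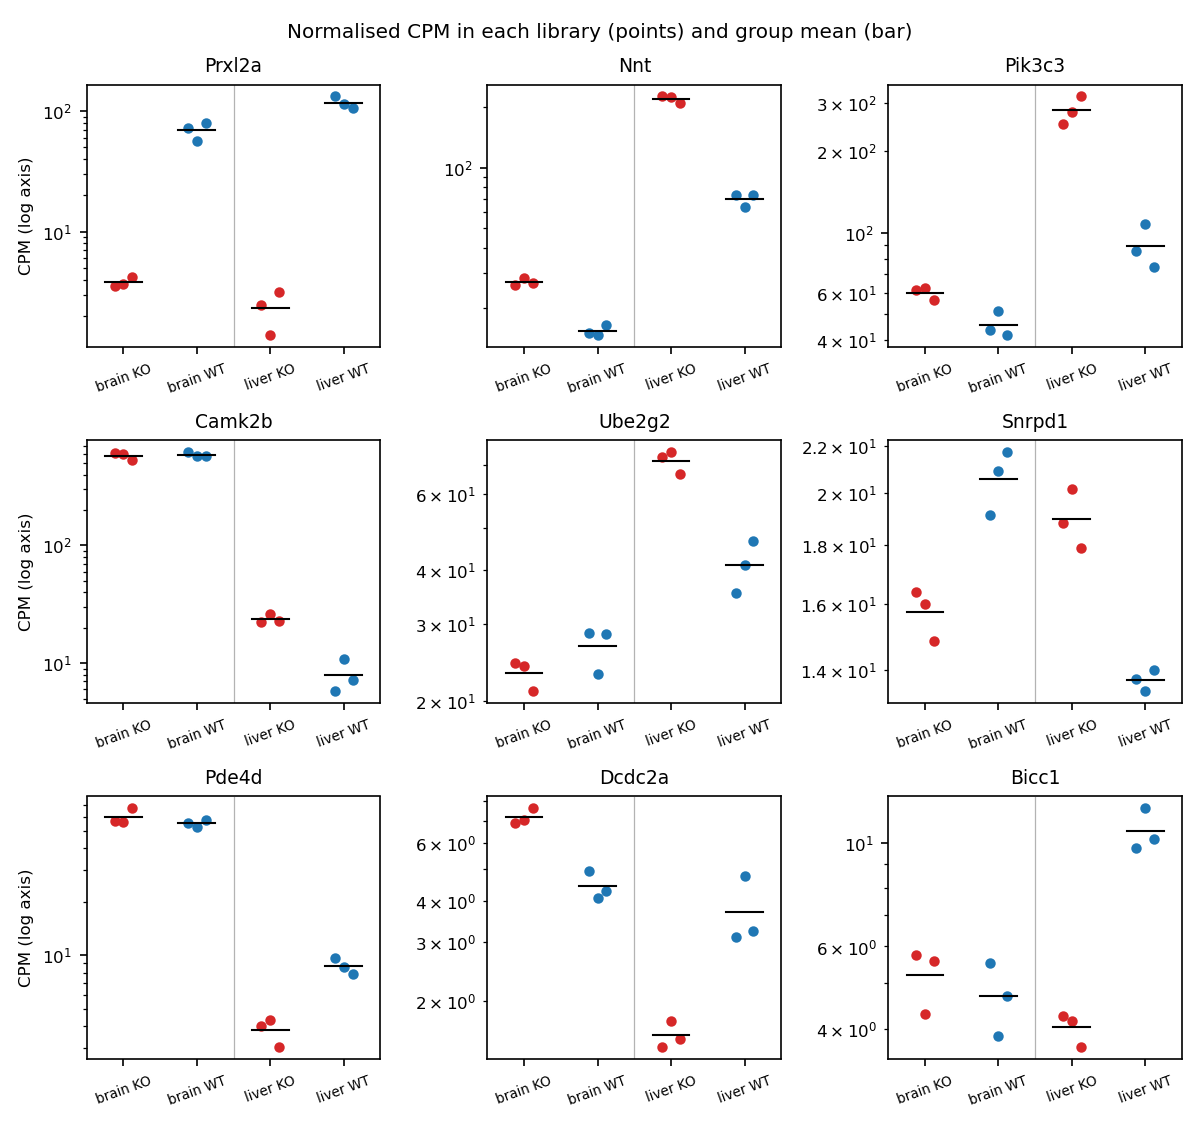
CPM of Prxl2a and 8 named genes called for the difference in each of the 12 libraries, on a log axis, with KO brain, WT brain, KO liver and WT liver from left to right and 1 point per library. Nnt and Pik3c3 are above WT in both KO groups, Camk2b and Ube2g2 in KO liver, and Pde4d, Dcdc2a and Bicc1 are below WT in KO liver.

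The 4 genes with a more negative change in liver were lower in every KO liver than in any WT liver, as were 10.1% of all genes tested, and none passed in brain. Pde4d (gene 238871, chr13:108654177-109955969) encodes a phosphodiesterase that breaks down cyclic AMP. It was at 56.4, 55.9 and 66.6 CPM in KO brains and 55.4, 52.2 and 57.1 CPM in WT brains, which overlapped. The livers held 4.004, 4.33 and 3.06 CPM in KO and 9.69, 8.63 and 7.83 CPM in WT. Pde4d had a log2 value of 0.12 in brain and a fall, -1.198, in liver (SE 0.15, edgeR adjusted p = 0.00153), with a difference of 1.32 (SE 0.18, edgeR adjusted p = 0.0145). This call was kept without any 1 of the 12 libraries (adjusted p = 0.0147 to 0.0441). It did not pass in limma-voom (adjusted p = 0.0699), in the fit of all 24 libraries (adjusted p = 0.281), or in limma-trend on TPM with a pseudocount of 1 (adjusted p = 0.128) or 0.1 (adjusted p = 0.0623). Nor did it pass with same-numbered libraries treated as 1 mouse.

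Dcdc2a (gene 195208, chr13:25055273-25210706) encodes a doublecortin-domain protein of the primary cilium, whose human counterpart is known from an inherited disease of the bile ducts. Its values were 6.87, 7.03 and 7.62 CPM in KO brains and 4.93, 4.09 and 4.28 CPM in WT brains. In liver they were 1.45, 1.73 and 1.53 CPM in KO and 3.11, 4.78 and 3.25 CPM in WT. KO libraries were the higher in brain and the lower in liver, with no overlap in either. Its brain log2 value of 0.69 (SE 0.17) did not pass (edgeR adjusted p = 0.422), and in liver Dcdc2a fell by 1.25 (SE 0.22, edgeR adjusted p = 0.0179). The difference was 1.94 (SE 0.28, edgeR adjusted p = 0.0162), and it did not pass without brain KO replicate 1 or 3 (adjusted p = 0.0528 and 0.0606) or liver KO replicate 1 or 3 (0.0556 and 0.0560).

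Bicc1 (gene 83675, chr10:70922830-71159690) encodes an RNA-binding protein known from mice with cystic kidneys. It was at 5.76, 4.29 and 5.58 CPM in KO brains and 5.53, 3.85 and 4.69 CPM in WT brains, and these overlapped. The liver values were 4.26, 4.16 and 3.65 CPM in KO and 9.77, 11.9 and 10.2 CPM in WT. It had a log2 value of 0.15 in brain and a fall, -1.3996, in liver (SE 0.19, edgeR adjusted p = 0.00242), with a difference of 1.55 (SE 0.25, edgeR adjusted p = 0.0360). With 1 library left out, the difference passed only without brain WT replicate 1 or brain KO replicate 2 (adjusted p otherwise up to 0.116, without liver WT replicate 2).

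Gldn (gene 235379, chr9:54286486-54341777) encodes gliomedin, which organises the nodes of Ranvier in peripheral nerve. It had 17, 14 and 18 counts in KO brains and 19, 15 and 25 counts in WT brains. It had 0 counts in each of the 3 KO livers and 11, 19 and 10 counts in the WT livers. Set against a floor of 3 counts over the KO liver group, Gldn was at least 13.0-fold lower in KO liver. It did not pass in brain (log2 change -0.22), and it passed in liver (edgeR adjusted p = 0.00297) and for the difference (edgeR adjusted p = 0.0331). The call for the difference was kept without brain WT replicate 2 and without brain WT replicate 3, and lost when any other library was left out (adjusted p up to 0.0986, without brain KO replicate 3).

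Other settings also ended calls for the difference among the 9 named genes. In the fit of all 24 libraries Pik3c3 and Gldn passed, and the other 7 did not (edgeR adjusted p from 0.187 for Bicc1 to 0.367 for Camk2b). In limma-trend on TPM, Camk2b, Ube2g2, Snrpd1, Pde4d and Bicc1 did not pass with a pseudocount of 1 or 0.1 (adjusted p from 0.0501 for Camk2b to 0.128 for Pde4d), and Bicc1 did not pass in limma-voom (adjusted p = 0.0548). With brain KO replicate 1 and brain WT replicate 3 both left out none of the 9 passed (edgeR adjusted p from 0.0736 for Pde4d to 0.163 for Bicc1). Treating same-numbered libraries as 1 mouse ended the calls of Pde4d, Dcdc2a, Bicc1, Gldn and Snrpd1.

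Markers of bile duct cells were lower in KO livers beside Dcdc2a. All 9 bile duct markers tested had a negative log2 change in liver, with a median of -0.83, and 1 of them, Spp1 (osteopontin), was called (-1.396, edgeR adjusted p = 0.0220, against 0.516% of genes tested called down). The Spp1 call was lost without liver WT replicate 2 or liver KO replicate 1, 2 or 3 (adjusted p up to 0.0830). The list was chosen after seeing the data. Its mean level was 1.32, 1.31 and 1.49 log2 CPM in KO livers and 2.15, 2.23 and 2.14 in WT livers, and the groups did not overlap. Summed over the 9 genes, the CPM was 74.6, 75.3 and 69.0 in KO and 145, 187 and 161 in WT. Epcam, a surface protein of bile duct epithelium, stood at 1.36, 2.25 and 2.29 CPM in KO livers and 5.19, 4.62 and 5.10 CPM in WT livers, and no marker of the list was at 0. In whole-organ RNA, fewer cells of a type and less RNA per cell cannot be told apart. The part of this in the liver values of Dcdc2a, Bicc1 and Pde4d was not tested.

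Markers of stellate and stromal cells were lower in every KO liver too, by little at the nearest libraries. They averaged 3.55, 4.37 and 4.04 log2 CPM in KO and 4.40, 4.87 and 4.51 in WT, with 11 of 12 members negative and a median of -0.64. In edgeR 0 were called (7 at an unadjusted p below 0.05), while DESeq2 called 3 down, beside 1.93% of all genes. Their part in the liver values above was not tested. Hepatocyte markers averaged 12.26, 12.21 and 12.25 in KO livers and 12.25, 12.01 and 12.19 in WT livers, which overlapped. Endothelial markers overlapped too, at 4.11, 3.92 and 4.29 in KO and 4.03, 4.28 and 4.31 in WT. In the other marker lists 2 members passed, both in liver: the macrophage receptor gene Trem2 (-1.97, edgeR adjusted p = 0.0330) and the lipid droplet gene Plin4 (1.497, edgeR adjusted p = 0.0202). Neither passed for the difference (edgeR adjusted p = 0.174 for Trem2 and 0.652 for Plin4). The call of Plin4 was lost without liver WT replicate 1 or 2 (adjusted p up to 0.0926). That of Trem2 was lost without brain WT replicate 1, brain KO replicate 3, liver WT replicate 2 or any liver KO replicate (adjusted p up to 0.178).

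**Figure D4:**
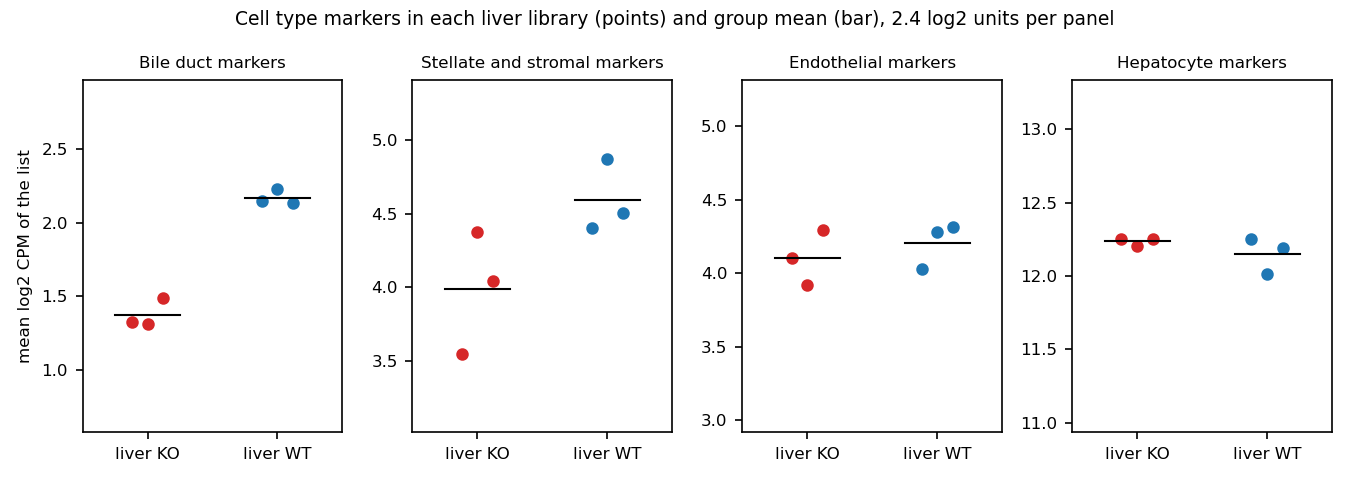
Mean log2 CPM of 4 marker lists in the liver libraries, KO left and WT right, 1 point per library, with each panel spanning the same range on the log2 axis. Bile duct markers lie at 1.31 to 1.49 in KO livers and 2.14 to 2.23 in WT livers, and stellate and stromal markers at 3.55 to 4.37 in KO and 4.40 to 4.87 in WT, while the hepatocyte and endothelial groups overlap.

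Gene models, meaning genes with only a Gm or LOC identifier, made up 11 of the 20 genes called for the difference. Of all genes tested, 3.89% had such an identifier or another provisional symbol, such as a Rik name. The share with a Gm or LOC identifier alone is therefore no higher. All 11 rose more in liver than in brain. Their brain log2 values ran from -0.30 to 0.94, of which none passed, and their liver changes from 1.69 to 4.86. LOC115489935 had 1.14, 1.14 and 1.29 CPM in KO brains and 1.41, 1.53 and 1.18 CPM in WT brains. In liver it had 38.7, 37.0 and 44.4 CPM in KO and 3.29, 5.32 and 5.19 CPM in WT. The brain libraries overlapped, and the KO livers were far above the WT livers (difference -3.33, edgeR adjusted p = 0.000235).

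Gm41844 (chr19:38379292-38381215) was at 8.62, 6.61 and 7.998 CPM in KO brains and 4.64, 3.66 and 3.79 CPM in WT brains. Its liver values were 35.6, 47.4 and 63.2 CPM in KO and 1.38, 1.62 and 2.02 CPM in WT. KO lay above WT in both tissues, by more in liver (difference -3.92, edgeR adjusted p = 0.000235). Gm46620 separated the other way in brain, at 68.5, 58.6 and 64.5 CPM in KO and 79.2, 73.1 and 83.2 CPM in WT. In liver it was at 215, 226 and 217 CPM in KO and 50.6, 81.4 and 55.9 CPM in WT (difference -2.10, edgeR adjusted p = 0.000578). Gm46911 and LOC115487832 had differences of -2.61 and -2.35 at the same adjusted p, and their brain groups overlapped.

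The other 6 models had differences of -2.52 (Gm42031), -1.77 (Gm43305), -1.60 (Gm40525), -1.60 (LOC115490111), -1.53 (LOC115489733) and -4.27 (Gm46353), with edgeR adjusted p from 0.00542 to 0.0290. The calls of Gm41844, Gm46911, LOC115489935, Gm46620, LOC115487832, Gm42031 and Gm43305 were kept without any 1 library. That of Gm40525 was lost without brain KO replicate 1 (adjusted p = 0.0528). LOC115490111 was lost without brain KO replicate 1 (0.0585), liver WT replicate 1 (0.0622), liver KO replicate 2 (0.0573) or liver KO replicate 3 (0.0560). Gm46353 was lost without 8 libraries, and kept without brain WT replicate 2, brain KO replicate 3, liver KO replicate 1 or liver KO replicate 3 (adjusted p otherwise up to 0.116, without liver WT replicate 2). LOC115489733 was lost without 10 libraries, and kept without brain WT replicate 2 or 3 (adjusted p otherwise up to 0.111, without liver WT replicate 2). Of the 11 models, 5 have a position in the RefSeq annotation of GRCm38.p6. The 300-base windows around the starts of Gm42031 and Gm43305 share 222 of 285 runs of 16 bases. Each of the 5 windows shared 50 or more such runs with windows of other genes. These were 5 genes each for Gm46911 and Gm41844, 4 each for Gm42031 and Gm43305, and 3 for Gm46353. Reads may be split between such models and other genes, so their values are uncertain.

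The mean of the brain and liver changes was tested as well. For this mean 75 genes were called (0.490% of genes tested; 45 up, 0.294%, and 30 down, 0.196%), and 16 of the 20 genes called for the difference were among them, so a called mean does not show equal changes. Wdfy1 encodes an adaptor that binds the lipid PI3P through its FYVE domain. It had 50.4, 39.4 and 47.7 CPM in KO brains and 21.7, 20.3 and 19.7 CPM in WT brains. It had 38.5, 42.8 and 35.7 CPM in KO livers and 25.6, 25.5 and 23.1 CPM in WT livers. KO was above WT in both, and the rise was 1.16 in brain (edgeR adjusted p = 0.00035) and 0.66 in liver (edgeR adjusted p = 0.0142). The difference of 0.50 did not pass (edgeR adjusted p = 0.259). The liver call was lost without liver WT replicate 1, 2 or 3 or liver KO replicate 1 or 2 (adjusted p up to 0.0760).

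Entpd4b, a gene of the apyrase family that has a near-identical copy, fell in both tissues. It was at 42.1, 50.02 and 40.6 CPM in KO brains and 82.8, 89.2 and 96.2 CPM in WT brains. It was at 40.6, 44.8 and 44.1 CPM in KO livers and 74.7, 65.5 and 67.7 CPM in WT livers. The groups did not overlap in either tissue, with a log2 change of -1.02 in brain (edgeR adjusted p = 0.000478) and -0.68 in liver (edgeR adjusted p = 0.00524). Srp54b, a subunit gene of the signal recognition particle with near-identical copies, had -0.66 in brain and -0.63 in liver, and its mean change passed (edgeR adjusted p = 0.00329). Dynlt1b, a dynein light chain gene with near-identical copies, had 0.73 in brain and 0.85 in liver, and its mean change passed (edgeR adjusted p = 0.00338). Because of the copies, the values of these 3 genes are uncertain.

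Some genes called in brain had larger values there than in liver, and in edgeR none of these passed for the difference. Pisd encodes the mitochondrial phosphatidylserine decarboxylase, which makes phosphatidylethanolamine. It stood at 76.8, 93.3 and 85.1 CPM in KO brains and 51.1, 49.8 and 46.2 CPM in WT brains. The livers overlapped, at 61.3, 66.0 and 64.4 CPM in KO and 60.4, 61.6 and 53.6 CPM in WT. Pisd rose by 0.79 in brain (SE 0.09, edgeR adjusted p = 0.00205), with 0.13 in liver, and the difference of 0.67 (SE 0.13) missed the threshold (edgeR adjusted p = 0.0765). Of the 12 genes of mitochondrial phospholipid synthesis, the list that holds Pisd, DESeq2 called 1 as more positive in brain. Over all genes tested, DESeq2 called 0.752% positive for the difference. Cd59a, which encodes an inhibitor of complement, rose by 0.99 in brain (edgeR adjusted p = 0.0214), with 0.07 in liver and a difference of 0.91 (edgeR adjusted p = 0.102). This brain call was lost without brain WT replicate 1 or 3, brain KO replicate 1 or 2, or liver KO replicate 2 or 3 (adjusted p up to 0.10).

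Just outside the threshold for the difference were 3 genes at an edgeR adjusted p of 0.0550. Ntrk2 encodes the receptor of the neurotrophin BDNF, and it was at 478, 429 and 516 CPM in KO brains and 502, 402 and 456 CPM in WT brains. In liver it was at 4.004, 2.77 and 3.31 CPM in KO and 23.6, 14.3 and 8.44 CPM in WT. The brain groups overlapped and the liver groups did not, where Ntrk2 fell by 2.20 (SE 0.32, edgeR adjusted p = 0.00459). Of the 16 genes of neurotrophin and calcium signalling tested, none passed in brain, and in liver Camk2b rose and Gldn and Ntrk2 fell. Over all genes tested, 0.562% were called up and 0.516% down in liver. Camk2b, Gldn and Ntrk2 had been named in earlier work on these data. The list was chosen with earlier results known, so this count is no separate result. Slc30a10, a manganese exporter, had -0.13 in brain and a rise of 0.92 in liver (SE 0.13, edgeR adjusted p = 0.00359), with a difference of -1.05 (SE 0.18). Nr1d2, a repressor of the circadian clock, had a difference of 0.83 (SE 0.14). Prxl2b, the paralogue of the deleted gene, was at 22.4, 26.4 and 27.3 CPM in KO brains and 23.8, 24.02 and 27.3 CPM in WT brains, which overlapped. It rose in liver, with 12.8, 15.4 and 14.4 CPM in KO and 8.21, 8.24 and 8.18 CPM in WT (log2 change 0.79, SE 0.12, edgeR adjusted p = 0.00746), and its difference of -0.77 (SE 0.16) did not pass (edgeR adjusted p = 0.113). Of the 3 PRXL2 family genes, only Prxl2b had a negative difference in edgeR. DESeq2 called 1 of the 3 as more positive in liver, beside 0.529% of all genes.

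Of 526 pathway genes tested in 24 lists, 4 were called for the difference: Nnt, Pik3c3, Camk2b and Gldn. Over all genes tested, 0.131% were called for it. All 4 had been named in earlier work on these data. The lists were chosen with earlier results known, so this count is no separate result. For several lists the members that passed in liver stood in a group, and for these the brain values are given beside them. Over all genes tested the median log2 change was -0.01 in brain and 0.00 in liver.

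Transcripts of ER chaperones and the unfolded protein response, the machinery that folds secreted proteins, were such a group. Of 23 genes tested, none rose in brain and 4 rose in liver, beside 0.0457% of all genes called up in brain and 0.562% in liver. The list's median log2 change was 0.11 in brain and 0.55 in liver, and 19 members were positive in brain and 22 in liver. For the difference, whose median was -0.46, edgeR called none of the 23 (8 at an unadjusted p below 0.05). DESeq2 called 3 of them (1 up, 2 down), beside 0.752% of all genes up and 0.529% down. In brain DESeq2 called none, beside 0.170% of all genes in each direction (2 at an unadjusted p below 0.05 in edgeR), and in liver it called 14 up, beside 1.67% of all genes. The mean level of the list in liver was 7.77, 8.20 and 7.57 log2 CPM in KO and 6.95, 7.16 and 7.47 in WT, so the lowest KO liver was little above the highest WT liver.

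Creld2, an ER-resident factor that helps proteins fold, showed the contrast between the tissues most plainly among the 4. It stood at 7.11, 7.62 and 7.498 CPM in KO brains and 7.43, 6.96 and 8.11 CPM in WT brains. It stood at 105, 189 and 79.2 CPM in KO livers and 20.8, 36.1 and 55.9 CPM in WT livers. The brain groups overlapped, the liver groups did not, and the KO livers spread widely. The log2 change was -0.02 in brain and 1.73 in liver (SE 0.33, edgeR adjusted p = 0.0273), and the difference of -1.74 (SE 0.48) did not pass (edgeR adjusted p = 0.218). The other 3 were Sdf2l1, a partner of the ER chaperones (1.53, edgeR adjusted p = 0.0232), the ER co-chaperone Dnajb11 (0.78, edgeR adjusted p = 0.0292) and the secreted ER stress protein Manf (1.09, edgeR adjusted p = 0.0473). The liver calls of Creld2, Sdf2l1 and Dnajb11 were lost without liver WT replicate 1 or 2 or liver KO replicate 2 (adjusted p up to 0.102). That of Manf was kept with 1 library left out only without liver WT replicate 1 or liver WT replicate 3 (adjusted p otherwise up to 0.157).

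Genes of this kind are known to carry the ER stress element near their start, which the factors ATF6 and XBP1 read together with NF-Y. The element was searched as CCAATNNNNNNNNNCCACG on both strands from 250 bases before to 50 bases after each gene's start in the RefSeq table for GRCm38.p6. It was found in 9 of 20 genes of the list with a window (45%) and in 37 of 27025 genes in all (0.137%). Of the 4 members called in liver, only Creld2 had a match, and Sdf2l1, Dnajb11 and Manf were not among the 9. Stretches of Creld2 and of 2 members that did not pass, Hspa5 and Syvn1, are shown for the letters they carry. They run 5′ to 3′ on the transcript's strand, with the element in capitals.
Creld2: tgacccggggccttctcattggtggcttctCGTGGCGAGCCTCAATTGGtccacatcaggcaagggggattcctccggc
Hspa5: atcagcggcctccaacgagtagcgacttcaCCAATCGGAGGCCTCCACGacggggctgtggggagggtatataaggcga
Syvn1: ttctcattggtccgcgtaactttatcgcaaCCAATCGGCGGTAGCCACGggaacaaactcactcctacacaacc
In Creld2 (chr15:88819490-88819568, plus strand) the match is on the opposite strand and its first printed base lies 126 bases before the start. In Hspa5 (chr2:34771995-34772073, plus strand), the gene of the main ER chaperone BiP, it begins 65 bases before the start, and in Syvn1 (chr19:6046502-6046575, plus strand), a ubiquitin ligase of the ER, 44 bases before it. Hspa5 had a log2 change of 0.29 in brain and 0.84 in liver (edgeR adjusted p = 0.0595), and Syvn1 had -0.02 in brain and 1.08 in liver (edgeR adjusted p = 0.0575), so neither passed. A match of letters is a description and not evidence of binding.

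Heat shock chaperones of the cytosol and mitochondrion gave no rise in brain and 3 in liver among 25 genes tested, beside 0.0457% of all genes called up in brain and 0.562% in liver. These were Stip1, a co-chaperone of Hsp90 (0.53, edgeR adjusted p = 0.0239), the small heat shock protein Hspb1 (1.24, edgeR adjusted p = 0.0382) and the inducible Hsp90 gene Hsp90aa1 (0.75, edgeR adjusted p = 0.0417). Stip1 was at 113, 112 and 103 CPM in KO brains and 109, 114 and 121 CPM in WT brains. In liver it was at 172, 187 and 169 CPM in KO and 104, 126 and 135 CPM in WT. It overlapped in brain and not in liver. The list's median was -0.01 in brain and 0.26 in liver. DESeq2 called 0 members in brain (0 at an unadjusted p below 0.05 in edgeR) and 8 up in liver, beside 1.67% of all genes. For the difference edgeR called 0 members (9 at an unadjusted p below 0.05) and DESeq2 called 1, more positive in liver, beside 0.529% of all genes. The liver call of Stip1 was lost without liver WT replicate 1 or 2 or liver KO replicate 1 or 2 (adjusted p up to 0.0862). The liver call of Hspb1 was lost without brain WT replicate 1, brain KO replicate 1, liver WT replicate 1 or 3 or any liver KO replicate (adjusted p up to 0.123). That of Hsp90aa1 was lost without brain WT replicate 1 or 2, brain KO replicate 2 or 3, liver WT replicate 1 or 2 or any liver KO replicate (adjusted p up to 0.118).

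Transcripts of cholesterol synthesis and uptake went the other way in liver. Of 24 genes tested, none fell in brain and 5 fell in liver, beside 0.0392% of all genes called down in brain and 0.516% in liver. The median log2 change was -0.08 in brain and -0.53 in liver, where only 2 of the 24 members were positive. Hmgcs1, which encodes the cytosolic HMG-CoA synthase, was at 195, 192 and 174 CPM in KO brains and 187, 233 and 216 CPM in WT brains. It was at 192, 161 and 230 CPM in KO livers and 428, 632 and 408 CPM in WT livers. The groups overlapped in brain and were apart in liver. The log2 change was -0.18 in brain, the gene fell by 1.33 in liver (SE 0.17, edgeR adjusted p = 0.00202), and the difference of 1.15 (SE 0.24) did not pass (edgeR adjusted p = 0.113).

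Other falls in liver were those of Msmo1, a sterol methyl oxidase (-1.15, edgeR adjusted p = 0.00527), Hsd17b7, a sterol ketoreductase (-0.59, edgeR adjusted p = 0.0127), and Fdft1, the squalene synthase (-0.79, edgeR adjusted p = 0.0382). The calls of Hmgcs1 and Msmo1 were kept without any 1 library. Hsd17b7 was lost without liver KO replicate 2 (adjusted p = 0.0545). Fdft1 was kept only without brain WT replicate 1, 2 or 3 or liver WT replicate 3 (adjusted p otherwise up to 0.129). The list's mean level in liver was 7.68, 7.13 and 7.49 log2 CPM in KO and 8.02, 8.24 and 7.73 in WT, without overlap. For the difference, whose median was 0.36, edgeR called 0 of the 24 (9 at an unadjusted p below 0.05). DESeq2 called 5, all with a positive difference, beside 0.752% of all genes. DESeq2 called 0 in brain (1 at an unadjusted p below 0.05 in edgeR) and 9 down in liver, beside 1.93% of all genes.

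The sterol regulatory element, read by the SREBP factors, was searched as TCACNCCAC in the same windows on both strands. It was found in 1 of 16 genes of the list with a window (6.25%) and in 388 of 27025 genes in all (1.44%). That gene was Hmgcs1 (chr13:119690184-119690252, plus strand), where the match begins 137 bases before the start. It is shown because this member had the smallest adjusted p of the 5 falls.
Hmgcs1: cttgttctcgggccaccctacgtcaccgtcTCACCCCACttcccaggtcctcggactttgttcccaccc
The absence of these letters from the other windows says nothing of the factors.

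Genes of fatty acid and triglyceride synthesis had a median log2 change of -0.03 in brain and -0.48 in liver over 22 genes. In edgeR only Lpin2, a lipin that makes diacylglycerol, fell in liver (-0.55, edgeR adjusted p = 0.0331), beside 0.516% of all genes called down there. Its call was lost without brain KO replicate 3, liver WT replicate 2 or 3 or liver KO replicate 1 or 2 (adjusted p up to 0.110). In edgeR 0 members passed in brain (0 at an unadjusted p below 0.05) or for the difference (4 at an unadjusted p below 0.05). DESeq2 called 0 in brain and 4 down in liver, beside 1.93% of all genes. For the difference it called 1, more positive in brain, beside 0.752% of all genes.

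The clock list, 21 genes, had a median of 0.16 in brain and 0.02 in liver, and 3 of its output and repressor genes fell in liver, beside 0.516% of all genes called down there. In brain edgeR called 0 members (4 at an unadjusted p below 0.05) and DESeq2 also 0. For the difference edgeR called 0 (6 at an unadjusted p below 0.05). DESeq2 called 4 for it, all more positive in brain, beside 0.752% of all genes. Nr1d2 was at 179, 150 and 154 CPM in KO brains and 136, 136 and 109 CPM in WT brains. In liver it was at 90.1, 98.2 and 90.0 CPM in KO and 135, 129 and 127 CPM in WT. KO was the higher in every brain comparison and the lower in every liver comparison. The brain log2 value of 0.34 did not pass (edgeR adjusted p = 0.527), and in liver it fell by 0.49 (edgeR adjusted p = 0.0435). Nr1d1, its paralogue, fell by 0.82 in liver (edgeR adjusted p = 0.0357) and the clock output gene Dbp fell by 1.12 (edgeR adjusted p = 0.0406). All 3 calls were lost without liver WT replicate 1 or 2, brain KO replicate 3 or any liver KO replicate (adjusted p up to 0.130). That of Nr1d1 was also lost without brain KO replicate 2, that of Dbp without brain WT replicate 1, and that of Nr1d2 without brain WT replicate 1, brain KO replicate 2 or liver WT replicate 3.

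**Figure D5:**
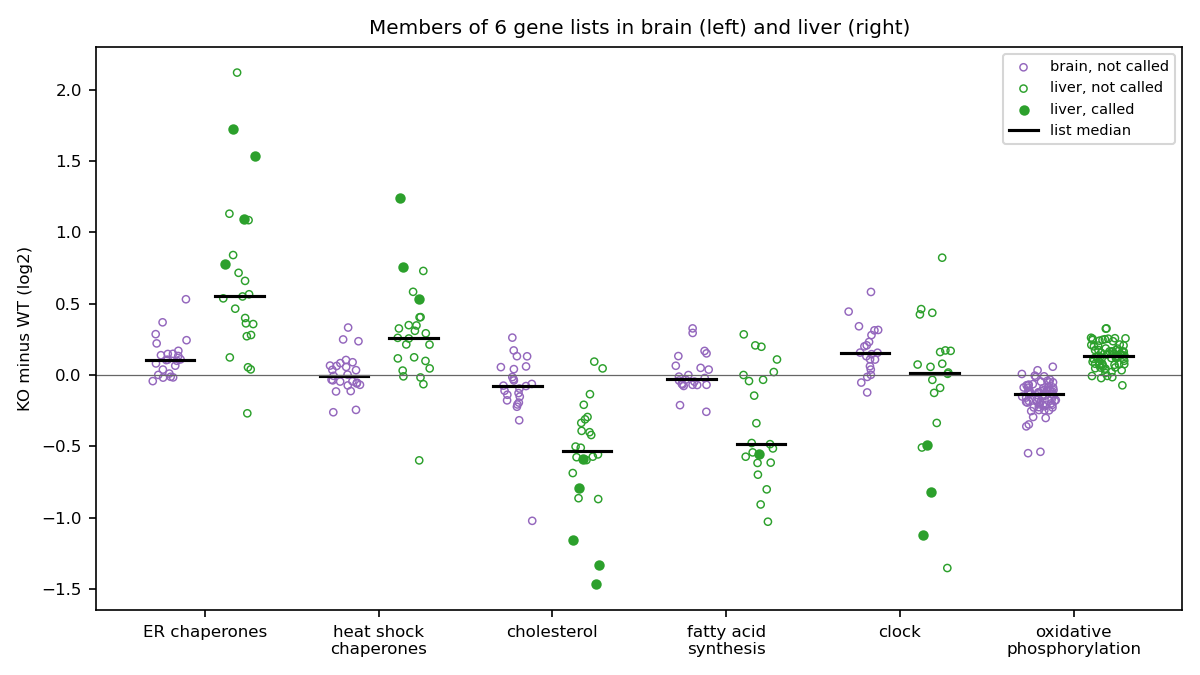
Log2 KO minus WT change of each tested member of 6 gene lists, brain left and liver right, with filled points for members called in liver and a bar at the list's median. The medians of the ER list are 0.11 in brain and 0.55 in liver, and those of the cholesterol list are -0.08 in brain and -0.53 in liver.

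Other lists held small or scattered changes. Subunits of oxidative phosphorylation had 0 members called among 73, by edgeR or DESeq2, in brain, in liver or for the difference (5, 6 and 16 at an unadjusted p below 0.05 in edgeR). Their median was -0.13 in brain, where 3 were positive, and 0.13 in liver, where 68 were positive. The level of this list in brain was 5.36, 5.74 and 5.63 log2 CPM in KO and 5.69, 5.79 and 5.74 in WT, with KO replicate 1 the lowest. Immediate early genes, 23 in number, had a median of 0.04 in brain and -0.50 in liver, with 0 called in edgeR and 6 at an unadjusted p below 0.05 in liver. DESeq2 called 2 down in liver, beside 1.93% of all genes. Their level in liver was 1.60, 1.92 and 1.95 log2 CPM in KO and 2.09, 1.96 and 3.08 in WT, and WT replicate 3 stood above all others. Egr1, for example, was at 5.54, 21.6 and 11.7 CPM in KO livers and 22.8, 17.9 and 199 CPM in WT livers.

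The peroxiredoxin, thioredoxin and glutathione lists held 1 call, in liver. EdgeR called 0 of the 7 peroxiredoxin and sulfiredoxin genes in brain, in liver or for the difference (0, 3 and 2 at an unadjusted p below 0.05), and DESeq2 called 1, for the difference. Of the 12 thioredoxin and glutaredoxin genes both tools called 0 (0, 1 and 1 at an unadjusted p below 0.05 in edgeR). Of 26 glutathione and NRF2 enzymes 1 passed, Gstp1, a glutathione transferase, which rose in liver by 0.56 (edgeR adjusted p = 0.0443). That call was kept with 1 library left out only without brain KO replicate 1 or liver KO replicate 3 (adjusted p otherwise up to 0.145). For these lists the medians of both tissues lay between -0.07 and 0.09.

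In edgeR, lists of liver metabolism and defence gave few calls, beside 0.562% of all genes called up and 0.516% down in liver. Ppp1r3c, which targets a phosphatase to glycogen, rose in liver by 1.403 (edgeR adjusted p = 0.0290), the only call among 22 genes of glycogen and gluconeogenesis. It was lost without liver WT replicate 1 or 2 or liver KO replicate 1 or 2 (adjusted p up to 0.114). Saa4, a serum amyloid protein, rose in liver by 0.79 (edgeR adjusted p = 0.0309), the only call among 21 acute phase genes. It was lost without any liver WT replicate or liver KO replicate 2 or 3 (adjusted p up to 0.0935). In edgeR 0 genes were called in either tissue or for the difference among 29 of fatty acid oxidation, 17 of bile acids, 29 cytochromes P450, 19 patterned by growth hormone and 25 of the interferon response. Their brain medians ran from -0.03 to 0.00 and their liver medians from -0.10 to 0.17, and 8, 3, 8, 6 and 6 members had an unadjusted p below 0.05 in liver. DESeq2 called 0 in brain or for the difference and 2, 1, 3, 3 and 1 of them in liver. The 3 growth hormone genes were all up, and of the 3 cytochromes P450 2 were up and 1 down. Over all genes, DESeq2 called 1.67% up and 1.93% down in liver.

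Genes of the integrated stress response and amino acid supply had a median of -0.23 in brain and 0.15 in liver over 24 genes, and cell cycle genes had -0.17 in brain and 0.23 in liver over 22. EdgeR called 0 of either list in brain, in liver or for the difference. Of the stress response 4, 5 and 4 members, and of the cell cycle 4, 3 and 5 members, had an unadjusted p below 0.05 in these comparisons. DESeq2 called 1 member of each list for the difference, in each case more positive in liver, beside 0.529% of all genes. It called 1 of each down in brain, beside 0.170% of all genes. In liver DESeq2 called 0 of the stress response and 1 cell cycle gene up, beside 1.67% of all genes.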

How the data were processed

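RNA of brain and liver was sequenced from 12 libraries, 3 per genotype and tissue. The submitters' processing notes name RSEM 1.3.1, Bowtie2 2.3.4.3 and DESeq2 1.4.5, and the build GRCm38.p6. The authors deposited expected counts per gene, estimated reads that are not normalised, per the file headers. The authors also deposited TPM values made within each library, per the file headers, which served only alternatives. Of 19015 genes listed, 15312 were tested, and 48 per-sample columns were left unused. The strand setting of the counting is not given in the sources used here.

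Expected counts were rounded (91.4% were already whole). In edgeR 4.0.16 (R 4.3.3) with TMM factors and the filterByExpr filter by group, 1 quasi-likelihood fit over the 12 libraries gave the brain minus liver difference of the KO minus WT changes, both changes and their mean. Calls are at a Benjamini-Hochberg adjusted p below 0.05, and standard errors came from the F statistic. On simulated counts for 15199 genes, 47 of 67 differences of 1 (log2), 65 of 67 of 2 and 66 of 66 of 3 were recovered, and 10 unchanged genes were called. The simulated spread followed the trend with expression level only, without a spread of each gene's own or regional differences between brain libraries. The changed genes had at least 1 CPM in each tissue, so recovery in the real libraries may be lower.

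Named genes were Prxl2a, called genes with a plain symbol and a mean of at least 5 CPM in 1 tissue, up to 3 members per pathway list called for the difference or 2 that did not pass, up to 8 called only for the mean, and 8 genes named in earlier work. Gldn entered by its list. Members called in liver, Cd59a, Slc30a10, Epcam, Hspa5 and Syvn1 were added after their values were seen. The values of 1 member of the cholesterol list are not reported here. The comparison, the 24 pathway lists and the 15 marker lists were chosen with earlier results of these data known, and the bile duct list after seeing the data. RefSeq tables for GRCm38.p6 held 15279 of the genes tested and gave the start-site sequences.

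Alternatives were RLE factors, TMM within tissues, no filter, a filter of 1 CPM in 3 libraries per tissue, DESeq2 1.42.0, limma-voom (limma 3.58.1) with and without a weight per tissue, a robust prior, all 24 libraries, replicate blocks, limma-trend with a pseudocount of 1 or 0.1 on TPM, an added minimum of 1 for the absolute log2 value, and the omission of each library in turn. The joint omission of brain KO replicate 1 and brain WT replicate 3 was chosen after seeing the data.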

Additional observations from a re-analysis of the deposited data

Results flagged for a closer look

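The KO minus WT change differed between brain and liver for 20 genes, by the edgeR test of the difference itself, and each value here is the change in brain less the change in liver on the log2 scale. Among genes with a name it was -0.85 for Nnt, -1.27 for Pik3c3, -1.59 for Camk2b, -1.01 for Ube2g2 and -0.86 for Snrpd1. It was 1.32 for Pde4d, 1.94 for Dcdc2a and 1.55 for Bicc1. The fitted 7.12 for Gldn depends on the prior count, since KO liver had 0 counts, and it is no bound. Among gene models it was -3.33 for LOC115489935, -3.92 for Gm41844, -2.61 for Gm46911, -2.35 for LOC115487832, -2.10 for Gm46620 and -2.52 for Gm42031. It was -1.77 for Gm43305, -1.60 for Gm40525, -1.60 for LOC115490111, -1.53 for LOC115489733 and -4.27 for Gm46353.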

How the results depend on the processing

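The difference was called for 38 genes with a filter of 1 CPM in 3 libraries of each tissue (16 positive, 22 negative), 196 in DESeq2 (115 and 81), 32 with log2(TPM + 0.1) (14 and 18) and 10 with all 24 libraries (3 and 7), against 20 (4 and 16). Leaving out 1 library gave 8 to 33, and leaving out brain KO replicate 1 and brain WT replicate 3 gave 6. In brain the 13 calls became 52 in DESeq2, 34 with log2(TPM + 1), 27 with log2(TPM + 0.1), and 9 to 37 with 1 library left out (37 without brain WT replicate 2). In liver the 165 calls became 550 in DESeq2, 310 in limma-voom with a weight per tissue, 98 with all 24 libraries, 304 with log2(TPM + 0.1) (74 up, 230 down) and 97 with an absolute log2 change of at least 1. With 1 library left out they were 76 to 169 (99 without liver WT replicate 1, 76 without liver WT replicate 2, 89 without liver KO replicate 2). The 75 calls for the mean became 194 in DESeq2 and 44 with an absolute log2 change of at least 1. Of pathway genes, 4 called for the difference became 26 in DESeq2, 2 with all 24 libraries, 0 to 6 with 1 library left out and 0 without brain KO replicate 1 and brain WT replicate 3. The Prxl2a difference, 1.48 in DESeq2, passed there (adjusted p = 0.000470). No called value changed direction (16 values called in neither fit did). Of the comparisons of single genes, 2589 kept their side of the threshold, 54 came to pass and 320 no longer passed.

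Deviations of same-numbered libraries correlated at -0.04 to 0.14 between brain and liver of 1 genotype, over 9038 genes. Between KO and WT of 1 tissue they correlated at -0.05 to 0.36. Organs of 1 mouse need not deviate alike, so these values cannot tell whether same-numbered libraries share a mouse. With the number as a replicate block, 13 genes were called for the difference, 11 of the 20 among them, and 2 pathway genes (lost were Nnt, Pik3c3, Ube2g2, Snrpd1, Dcdc2a, Bicc1, Gldn, Gm46353 and LOC115489733, at adjusted p from 0.0534 to 0.108). With same-numbered libraries as 1 mouse, 22 were called, 15 of the 20 among them (lost were Pde4d at 0.0524, Dcdc2a at 0.0609, Snrpd1 at 0.0611, Bicc1 at 0.0705 and Gldn at 0.127). The causes of these shifts were not tested. The low counts of Gldn limit its values.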

Other observations

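Both fat depots of the same series were outside the comparison, and the 20 genes called for the difference had these KO minus WT log2 changes there in a fit of all 24 libraries. Pik3c3 had 1.60 in inguinal adipose tissue (edgeR adjusted p = 1.59e-06) and 0.87 in dorsal brown adipose tissue (edgeR adjusted p = 0.00351). Nnt had 1.21 in inguinal fat (edgeR adjusted p = 0.000445) and 0.50 in brown fat (edgeR adjusted p = 0.256). Camk2b had 1.38 in inguinal fat (edgeR adjusted p = 0.0225) and 0.55 in brown fat (edgeR adjusted p = 0.547). Bicc1 had -0.78 in inguinal fat (edgeR adjusted p = 0.0353) and -0.67 in brown fat (edgeR adjusted p = 0.266). Pde4d, lower in KO liver, had 0.17 in inguinal fat (edgeR adjusted p = 0.660) and 0.64 in brown fat (edgeR adjusted p = 0.208). Gm40525 had 1.86 in inguinal fat (edgeR adjusted p = 0.00126) and 1.80 in brown fat (edgeR adjusted p = 0.00976). Ube2g2 had 0.22 in inguinal fat (edgeR adjusted p = 0.428) and 0.26 in brown fat (edgeR adjusted p = 0.606). Snrpd1 had 0.35 in inguinal fat (edgeR adjusted p = 0.127) and 0.46 in brown fat (edgeR adjusted p = 0.197). Gldn had -0.47 in inguinal fat (edgeR adjusted p = 0.404) and 0.84 in brown fat (edgeR adjusted p = 0.325). Dcdc2a had next to no counts in either depot and is given no change. Of the 11 gene models, 10 passed in inguinal fat, with log2 changes from 0.95 (Gm46620) to 3.46 (LOC115489935), and Gm46353 did not (1.77, edgeR adjusted p = 0.0566). In brown fat 2 of the 11 passed, Gm40525 and Gm43305 (1.21, edgeR adjusted p = 0.0475). The share of all genes called in each depot was not computed, so these counts cannot be set against it.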
